A study of Mus musculus with 6 samples.

Results

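Transcripts of 44 genes of glycolysis and the hypoxia response were examined in subcutaneous MCA205 tumors with and without FF-10101, an inhibitor of the receptor tyrosine kinases CSF1R and FLT3. The genes were a fixed list of names matched to the rows of the deposited table. They were 44 of its 54309 gene identifiers, 24 of them for glucose entry, the glycolytic enzymes, their regulators and lactate handling, and 20 for the hypoxia-inducible factors (HIF) and genes known as their targets. MCA205 is a mouse fibrosarcoma line. Female C57BL/6J mice aged 7 weeks had received 1000000 cells under the skin of the flank, and bulk RNA of whole tumors was sequenced on day 8. The 3 Control tumors came from mice drinking MilliQ water, and the 3 FF-10101–treated tumors from mice whose water held 0.1 mg/mL FF-10101 from day 1 on. Both groups were wild-type hosts carrying the same line, the drug was given to the whole animal, and whole tumors hold host cells beside the injected line. Values are normalized counts, that is, reads per gene divided by a size factor of the tumor, and a log2 difference is the FF-10101 mean minus the Control mean of log2(normalized count + 1).

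Glycolysis splits glucose to pyruvate in the cytosol, and lactate dehydrogenase turns pyruvate into lactate, which leaves the cell through monocarboxylate transporters. Cells short of oxygen lean on this route. The prolyl hydroxylases encoded by *Egln1* and *Egln3* use oxygen to mark the HIF alpha subunits for destruction, and when oxygen is low the subunits persist, pair with the *Arnt* product and bind DNA at short sites in genes for glucose transport, glycolysis, blood vessel growth, pH control and mitochondrial removal. HIF activity is set largely through the stability of the alpha subunit protein, which RNA does not report. In tumors these transcripts are widely used as a readout of poor oxygen supply.

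The letters that HIF binds, ACGTG or GCGTG, were counted on both strands in RefSeq promoter windows of the mouse assembly GRCm38.p6, each from 250 bases before to 50 bases after an annotated start. A palindrome that matches on both strands was counted once. Windows were found for 40 of the 44 genes, and 37 of the 40 (92.5%) held a core in at least 1 window, against 46.7% of 27025 genes with a window. At least 2 cores in 1 window were present in 72.5% of the 40 genes and 19.2% of all genes. The core contains the pair CG, and among windows with at least 21 CG pairs the shares were 90.3% of 31 windows of these genes and 74.0% of 8148 windows. The stretches before the start of *Slc16a1*, *P4ha2*, *Bnip3* and *Pgk1* show the layout in a lactate transporter whose groups did not overlap, in 2 genes with a wide spread within the groups, and in a core enzyme whose groups overlapped. Each runs 5′ to 3′ toward the gene, with the cores in capitals, at chr3:104638414-104638663, plus strand for *Slc16a1*, chr11:54100674-54100923, plus strand for *P4ha2*, chr7:138909507-138909756, minus strand for *Bnip3* and chrX:106186850-106187099, plus strand for *Pgk1*.
Slc16a1: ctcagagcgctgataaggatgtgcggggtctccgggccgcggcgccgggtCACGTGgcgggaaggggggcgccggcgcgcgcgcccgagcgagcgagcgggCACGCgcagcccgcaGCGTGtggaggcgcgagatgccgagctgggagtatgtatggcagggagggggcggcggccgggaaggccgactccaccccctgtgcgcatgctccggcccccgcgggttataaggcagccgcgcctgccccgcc
P4ha2: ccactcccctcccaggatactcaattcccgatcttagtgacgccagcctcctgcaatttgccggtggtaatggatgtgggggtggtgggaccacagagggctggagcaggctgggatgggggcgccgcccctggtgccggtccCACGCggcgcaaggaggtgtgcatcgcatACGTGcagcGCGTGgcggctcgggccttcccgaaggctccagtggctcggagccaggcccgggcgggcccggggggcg
Bnip3: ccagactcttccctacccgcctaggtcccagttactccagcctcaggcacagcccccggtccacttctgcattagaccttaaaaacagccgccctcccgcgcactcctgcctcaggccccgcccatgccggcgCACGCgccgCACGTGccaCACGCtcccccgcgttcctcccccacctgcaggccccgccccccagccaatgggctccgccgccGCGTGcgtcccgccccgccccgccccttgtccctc
Pgk1: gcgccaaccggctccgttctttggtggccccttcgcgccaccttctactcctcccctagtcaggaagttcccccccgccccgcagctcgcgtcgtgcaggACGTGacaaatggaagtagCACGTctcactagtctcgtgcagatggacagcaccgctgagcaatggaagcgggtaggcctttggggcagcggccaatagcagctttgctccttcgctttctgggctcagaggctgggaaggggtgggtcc
Within these 250 bases, *Bnip3* has 4 cores, *Slc16a1* and *P4ha2* have 3 each and *Pgk1* has 2, which begin 150 and 131 bases before the start. A match of letters is a description of the sequence and was not tested for binding.

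The libraries held 9143806 to 13258258 reads. Control tumor 1 stood apart from the other Control tumors: across all genes its log2 values correlated at 0.95 to 0.96 with the FF-10101–treated tumors and at 0.92 to 0.93 with Control tumors 2 and 3, as a description over genes that are not independent. The counts of genes called are therefore also given without it. As that tumor is the Control nearest to the treated tumors, leaving it out sets the groups farther apart, and the calls made without it show how far the counts depend on 1 tumor and are no independent evidence of an effect. The fibroblast markers expected of a fibrosarcoma were abundant in every tumor (*Vim* 28119.7 to 36521 and *Col1a1* 11065 to 57277 normalized counts). The summed level of 10 macrophage markers, in normalized counts as for every sum below, was 71513 to 108301 in the Control tumors and 36383 to 57144 in the FF-10101–treated tumors, with no overlap. *Lyz2*, *C1qa*, *C1qb* and *C1qc* made up 81.4% of that sum, and the sum of the other 6 markers, at 10979 to 21195 and 7618 to 12461, overlapped between groups. Of the 10 markers, 9 had a log2 difference below 0, and 6 (these 4, *Adgre1* and *Mrc1*) were lower in every FF-10101–treated tumor, beside 9.37% of all genes.

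None of the 44 genes changed with FF-10101 at a limma adjusted p under 0.05, against 0.0430% of the 13963 genes tested, and limma-voom on the recovered reads also called 0. At an unadjusted p under 0.05 there were 5 genes, all higher in the FF-10101–treated tumors: *Epas1*, *Hif1a*, *Pfkfb3*, *Pfkm* and *Slc16a1*. That is 11.4% of the list, beside 16.3% of all genes tested in either direction and 8.77% in the higher direction. Every FF-10101–treated tumor lay above every Control tumor for *Slc16a1*, *Pfkm* and *Eno2* (6.82% of the list, against 10.9% of all genes) and below every Control tumor for *Pfkfb4* (2.27%, against 9.37%). All 44 genes passed the minimum mean of 10 normalized counts. The median log2 difference was -0.069 over the 24 glycolysis genes and 0.14 over the 20 hypoxia genes, beside 0.02 over all genes tested, and 33 of the 44 genes differed by less than 0.5 in either direction. The share at an unadjusted p under 0.05 was thus below that of the whole table in either direction and above it in the higher direction, both shares without overlap were below it, and the groups overlapped for 40 of the 44 genes. Without FF-10101 tumor 3, 25% of the list lay lower in every treated tumor, beside 11.8% of all genes. Without Control tumor 1, 31.8% lay higher, beside 28.4%. In all other cases of 1 tumor left out, the shares without overlap stayed below those of all genes. The standard errors of 0.14 to 0.64 over the 44 genes set what could be seen with 3 tumors per group.

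**Figure D1:**
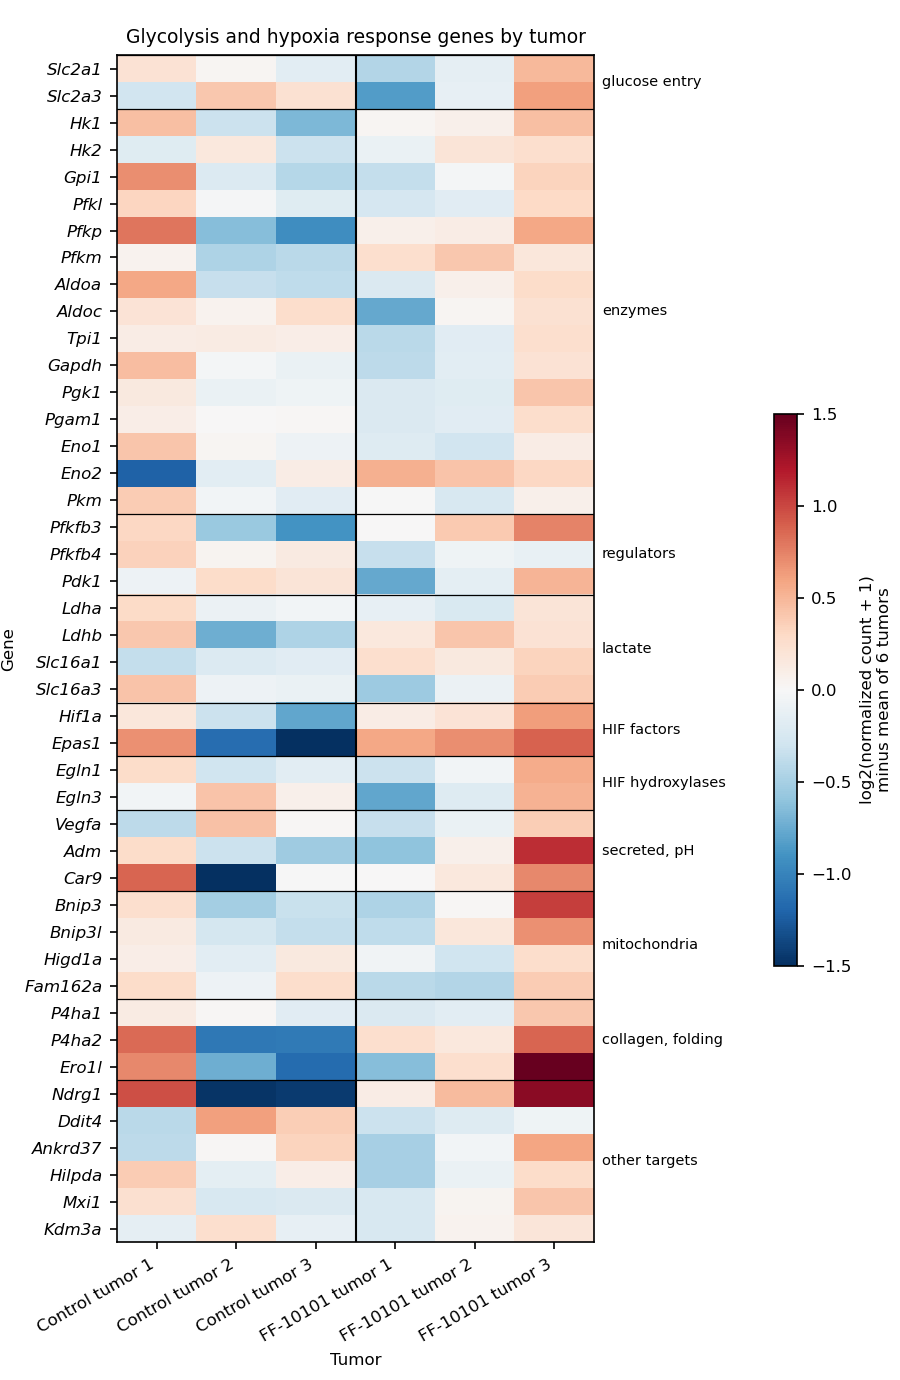
Heat map of the 44 genes (rows, grouped by role) in the 6 tumors (columns). Color gives log2(normalized count + 1) minus the gene's mean over the 6 tumors, with the scale ending at 1.5 in either direction. FF-10101 tumor 3 and Control tumor 1 are red for most rows, and no role separates the groups as a block.

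Glucose enters through the facilitative transporters, and neither of both transporters passed the test. *Slc2a1*, the broadly expressed GLUT1, measured 1362, 1203 and 1056 normalized counts in the Control tumors and 865, 1069 and 1649.7 in the treated tumors. The lowest and the highest value were both in FF-10101–treated tumors, and the log2 difference was -0.061 ± 0.24 (SE, n = 3 per group), limma adjusted p = 0.919. *Slc2a3*, the GLUT3 transporter of higher glucose affinity, was the other transporter, at 96.2 to 267 normalized counts and a log2 difference of -0.23.

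None of the abundant enzymes of the pathway passed the test, and their groups overlapped. Per kilobase of the longest coding transcript, *Gapdh* was the most abundant of the 44 genes, at 16508 normalized counts per kilobase in the Control mean and 14197 in the FF-10101 mean. *Pkm*, which encodes the pyruvate kinase of the last step, followed at 8445 and 7739 per kilobase. *Ldha*, *Aldoa*, *Pgk1* and *Eno1* took the next 4 places in both group means, in differing order. *Gapdh* measured 29406, 20907 and 20011 normalized counts in the Control tumors and 16325, 19221 and 24935 in the treated tumors, a log2 difference of -0.22 ± 0.25 (SE, n = 3 per group), limma adjusted p = 0.678. Genes with a sequence near-identical to *Gapdh*, whose reads Salmon splits by estimation, held 0.115% of the sum of *Gapdh* and these copies in the Control tumors and 1.95% with FF-10101. With all of them added to *Gapdh*, an alternative chosen after seeing the data, the log2 difference was -0.19. The 1 copy with most reads, *Gm12671*, had 0 in all Control tumors and in FF-10101 tumor 1 and 254 and 693 normalized counts in FF-10101 tumors 2 and 3. *Pgk1*, which makes the first ATP of the pathway and whose promoter is printed above, measured 11226, 9515 and 9703 normalized counts in the Control tumors and 8720.2, 8989 and 13584 in the treated tumors. The groups overlapped widely, with a log2 difference of 0.013 ± 0.22 (SE). *Gpi1*, *Pfkl*, *Aldoa*, *Tpi1*, *Pgam1*, *Eno1* and *Pkm* had log2 differences between -0.25 and 0.092, each with groups that overlapped. Together, the 24 glycolysis genes took 1.24%, 1.01% and 0.939% of all reads in the Control tumors and 0.898%, 0.94% and 1.21% in the FF-10101–treated tumors. The highest share was in Control tumor 1 and the next in FF-10101 tumor 3.

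Among the enzymes, groups that did not overlap were found for *Pfkm* and *Eno2*, both of lower level than the main isoforms. *Pfkm*, the muscle-type phosphofructokinase of the committing step, measured 648, 453 and 473 normalized counts in the Control tumors and 742, 825 and 701 in the treated tumors. The groups did not overlap, with Control tumor 1 nearest to the treated tumors, and the log2 difference was 0.54 ± 0.18 (SE, n = 3 per group), limma adjusted p = 0.244. Skeletal muscle also carries this isoform, and the summed level of 12 skeletal muscle markers was 8385, 3896 and 5818 in the Control tumors and 3877, 14184 and 8448 in the treated tumors. All 12 were detected, 10 with a log2 difference above 0 and 2 below, and 0 had an unadjusted p under 0.05. FF-10101 tumor 2 was highest in both *Pfkm* and that sum. FF-10101 tumor 1 was lowest in that sum, while its *Pfkm* lay above every Control tumor. The part of muscle in the *Pfkm* value was not tested. *Eno2*, the enolase best known from neurons, measured 15.8, 33.7 and 41 normalized counts in the Control tumors and 55, 51 and 47.1 in the treated tumors. The treated tumors lay above the Controls without overlap at a low level, with a log2 difference of 0.84 ± 0.40 (SE, n = 3 per group), limma adjusted p = 0.34. *Hk2*, the hexokinase that many tumors use for the first step, measured 427, 541 and 388 normalized counts in the Control tumors and 453, 553 and 578 in the treated tumors. These ranges overlapped, and the log2 difference was 0.23 ± 0.18 (SE, n = 3 per group), limma adjusted p = 0.556. *Hk1* and *Pfkp*, the constitutive hexokinase and the platelet-type phosphofructokinase, differed by 0.37 and 0.52 with all tumors, and *Aldoc* by -0.35. In the Control group *Pfkp* was 1498 normalized counts in tumor 1 against 553 and 450.4 in the others, a wider gap than between the group means.

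Of the 3 regulators of glycolysis, 1 had a higher and 2 a lower mean in the FF-10101–treated tumors. *Pfkfb3* and *Pfkfb4* encode bifunctional enzymes that set the level of fructose 2,6-bisphosphate, the strongest activator of phosphofructokinase. *Pfkfb3* measured 944, 515 and 408 normalized counts in the Control tumors and 765, 993 and 1268 in the treated tumors. Control tumor 1 lay among the treated tumors, and the log2 difference was 0.76 ± 0.32 (SE, n = 3 per group), limma adjusted p = 0.303. *Pfkfb4* measured 412, 336 and 358 normalized counts in the Control tumors and 256, 310.5 and 300.4 in the treated tumors. Here every treated tumor lay below every Control tumor, by a log2 difference of -0.35 ± 0.17 (SE, n = 3 per group), limma adjusted p = 0.342. *Pdk1*, the kinase that holds pyruvate back from the mitochondrion and a classic HIF target, measured 742, 949 and 892 normalized counts in the Control tumors and 459.8, 707 and 1117 in the treated tumors. Both extremes were in the treated group, and the log2 difference was -0.26 ± 0.30 (SE, n = 3 per group), limma adjusted p = 0.683.

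Of the 4 genes of lactate handling, *Slc16a1* had groups that did not overlap. *Slc16a1* encodes MCT1, a transporter that moves lactate with a proton either way, and measured 679.9, 752 and 774 normalized counts in the Control tumors and 1033, 965 and 1092 in the treated tumors. All treated tumors lay above all Control tumors, and Control tumor 1 was here the lowest of all. The log2 difference was 0.49 ± 0.14 (SE, n = 3 per group), limma adjusted p = 0.229, the lowest unadjusted p of the 44 genes at 0.00792. *Slc16a3*, the MCT4 transporter known for lactate export from glycolytic cells, ranged from 664 to 1295 normalized counts with overlapping groups and a log2 difference of -0.16. *Ldha*, the dehydrogenase subunit that favors lactate production, measured 12719.9, 9799 and 10086 normalized counts in the Control tumors and 9568, 8864 and 11935 in the treated tumors. The groups overlapped, with a log2 difference of -0.10 ± 0.19 (SE, n = 3 per group), limma adjusted p = 0.809. *Ldhb*, the subunit common in heart, was 239, 108 and 129.8 normalized counts in the Control tumors and 200.1, 241 and 209 in the treated tumors. Control tumor 1 again sat with the treated tumors, and the log2 difference was 0.53.

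**Figure D2:**
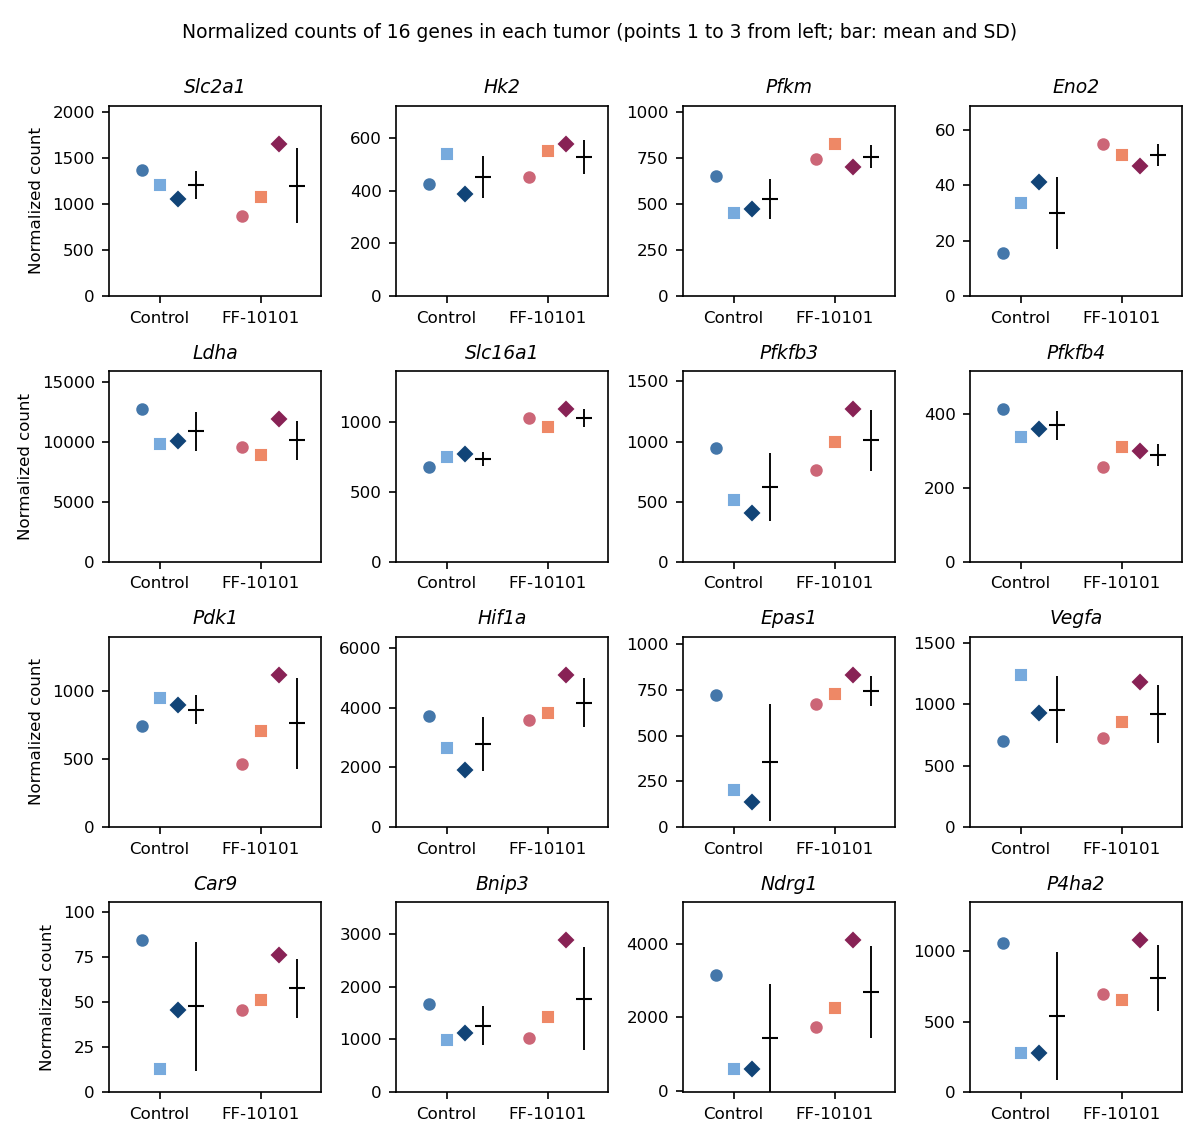
Normalized counts of 16 genes, with tumors 1, 2 and 3 of each group from left to right and the mean and SD beside them. *Slc16a1*, *Pfkm* and *Eno2* are higher and *Pfkfb4* is lower in every FF-10101–treated tumor, and Control tumor 1 reaches the treated tumors for *Epas1*, *Ndrg1* and *P4ha2*.

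Both HIF alpha subunits had a higher mean in the FF-10101–treated tumors, without passing the test. *Hif1a*, the subunit found in most cells, measured 3728, 2652 and 1925 normalized counts in the Control tumors and 3569.7, 3814 and 5099 in the treated tumors. Control tumor 1 lay above FF-10101 tumor 1, so that the groups overlapped, and the log2 difference was 0.62 ± 0.26 (SE, n = 3 per group), limma adjusted p = 0.299. *Epas1*, which encodes HIF-2α and is prominent in endothelium, measured 720.4, 202 and 138 normalized counts in the Control tumors and 671, 729.5 and 833 in the treated tumors. Control tumors 2 and 3 stood far below the other 4 tumors, while Control tumor 1 lay within the treated range. The log2 difference of 1.44 ± 0.53 (SE, n = 3 per group), limma adjusted p = 0.263, was the largest of the 44 genes. Control tumors 2 and 3 were also lowest in the summed level of 10 endothelial markers, which was 7654, 3004 and 2428 in the Control tumors and 7479, 7963 and 7833 in the treated tumors. All 10 were detected and above 0 in log2 difference, with 7 of 10 at an unadjusted p under 0.05 in the higher direction, beside 8.77% of all genes, and none past the adjusted threshold. That last count rested on Control tumor 1, since without it limma called all 10 higher, beside 1672 of the 13963 genes tested. The summed level of 7 pericyte markers was 3975, 3142 and 2617 in the Control tumors and 4359, 6689 and 5104 in the treated tumors, lowest in the same Control tumors and without overlap between groups, and 6 of the 7 had a log2 difference above 0, although each marker alone overlapped. The part of both cell types in the *Epas1* value was not tested, and in bulk tumors more cells of a type and more RNA per cell cannot be told apart. The summed level of 10 neutrophil markers, cells that also express *Hif1a*, was 3051, 2524 and 2229.6 in the Control tumors and 4148, 3753 and 4089.7 in the treated tumors, without overlap between groups. *Ly6g* had at most 0.764 normalized counts in any tumor. Of the 9 markers above the minimum, 8 had a log2 difference above 0. *Mmp9*, the most abundant marker in Control tumors 2 and 3, at 1537 and 1369, went the other way at -0.13. The part of neutrophils in the *Hif1a* value was not tested.

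The oxygen-sensing hydroxylases, themselves induced by HIF as a feedback, had log2 differences of either sign. *Egln1* (PHD2) had a log2 difference of 0.13 and *Egln3* (PHD3) one of -0.31, both with overlapping groups. *Egln3* spanned 443 to 1092 normalized counts within the treated group, which was also its whole range over the 6 tumors.

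The 3 secreted and pH-regulating targets had overlapping groups. *Vegfa*, the main growth factor for new vessels, measured 697, 1239 and 928 normalized counts in the Control tumors and 720.2, 857 and 1182 in the treated tumors. The highest value was in Control tumor 2 and the lowest in Control tumor 1, and the log2 difference was -0.045 ± 0.26 (SE, n = 3 per group), limma adjusted p = 0.943. *Car9*, the cell-surface carbonic anhydrase used as a tissue marker of hypoxia, was low, at 84.4, 13 and 45.5 normalized counts in the Control tumors and 45.8, 51 and 76.4 in the treated tumors. Control tumors alone covered the whole range, and the log2 difference was 0.59 ± 0.62 (SE, n = 3 per group), limma adjusted p = 0.656. *Adm*, which encodes the vasodilator adrenomedullin, ranged from 66.4 to 220.4 normalized counts, with both ends in the treated group.

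The 4 mitochondrial targets also had overlapping groups. *Bnip3*, a receptor for removal of mitochondria, measured 1677, 985 and 1117 normalized counts in the Control tumors and 1019, 1422 and 2877 in the treated tumors. FF-10101 tumor 3 had the highest value, and FF-10101 tumors 1 and 2 lay within the Control range. The log2 difference was 0.39 ± 0.38 (SE, n = 3 per group), limma adjusted p = 0.621. Its relative *Bnip3l* (NIX) differed by 0.32, and *Higd1a* and *Fam162a*, small mitochondrial proteins, by -0.065 and -0.31, each with overlapping groups.

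The 3 genes of collagen hydroxylation and protein folding had overlapping groups, with wide spread within the groups for *P4ha2* and *Ero1l*. *P4ha2*, a catalytic subunit of collagen prolyl 4-hydroxylase, measured 1062, 279 and 282 normalized counts in the Control tumors and 698, 657 and 1079 in the treated tumors. Control tumors 2 and 3 lay below the other 4 tumors, and the log2 difference was 0.85 ± 0.50 (SE, n = 3 per group), limma adjusted p = 0.422. *Ero1l*, the oxidase that drives disulfide formation in the endoplasmic reticulum, measured 2100.5, 763 and 572 normalized counts in the Control tumors and 818, 1518 and 3722 in the treated tumors. It covered a wider range among the treated tumors than between the group means, and the log2 difference was 0.78 ± 0.62 (SE, n = 3 per group), limma adjusted p = 0.551. *P4ha1*, the other catalytic subunit, differed by 0.021. The summed level of 10 markers of the mesenchymal tumor compartment, several of them collagens, was 302512, 157811 and 124327 in the Control tumors and 346897, 259732 and 245976 in the treated tumors, so that Control tumors 2 and 3 were lowest in both the sum and *P4ha2*. The part of that compartment in the *P4ha2* value was not tested.

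Of the remaining 6 targets, *Ndrg1*, a stress-induced gene that is strongly inducible by hypoxia, had the second largest log2 difference of the list. It measured 3147, 584 and 596 normalized counts in the Control tumors and 1745, 2245 and 4118 in the treated tumors. Control tumor 1 was above FF-10101 tumors 1 and 2, and the log2 difference was 1.29 ± 0.64 (SE, n = 3 per group), limma adjusted p = 0.354. *Ddit4* (REDD1), an inhibitor of mTORC1, went the other way at 608, 1227 and 1037 normalized counts in the Control tumors and 639, 699 and 769.8 in the treated tumors, with a log2 difference of -0.39 ± 0.26 (SE, n = 3 per group), limma adjusted p = 0.475. *Ankrd37*, *Hilpda* (a lipid droplet protein), *Mxi1* (a MYC antagonist) and *Kdm3a* (a histone demethylase) had log2 differences between -0.22 and 0.14. *P4ha2*, *Ero1l*, *Ndrg1*, *Ddit4*, *Gapdh*, *Pgk1*, *Ldhb* and, for the Control group, *Pfkp* were given by tumor after their values had been seen.

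Without Control tumor 1, the same fit called 11 of the 44 genes at an adjusted p under 0.05, 25% of the list, beside 21.9% of all genes tested. It called 10 of the 44 genes higher and 1 lower, and 1672 and 1379 of the 13963 genes. The 10 were *Epas1*, *Ndrg1*, *P4ha2*, *Pfkfb3*, *Pfkp*, *Ldhb*, *Hif1a*, *Pfkm*, *Hk1* and *Slc16a1*, and *Ddit4* was the gene called lower. *Epas1* stood at 2.15 ± 0.20 (SE) on the log2 scale with a limma adjusted p of 0.000799. *Ndrg1* stood at 2.10 ± 0.31 with a limma adjusted p of 0.00466, and *P4ha2* at 1.49 ± 0.22 with 0.00463. *Slc16a1*, of the 11 the closest to its value from all 6 tumors, stood at 0.43 ± 0.13 with a limma adjusted p of 0.0482. The genes called higher hold both HIF alpha subunits and 6 of the 24 glycolysis genes. Among those not called, *Slc2a1*, *Ldha*, *Pgk1*, *Gapdh* and *Pkm* had log2 differences in this fit between -0.043 and 0.088. The abundant enzymes *Aldoa* and *Gpi1* stood at 0.40 and 0.30, and *Tpi1*, *Eno1* and *Pgam1* at -0.22, -0.10 and -0.051. The Control mean then rests on 2 tumors, and nothing in the labels sets Control tumor 1 apart.

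**Figure D3:**
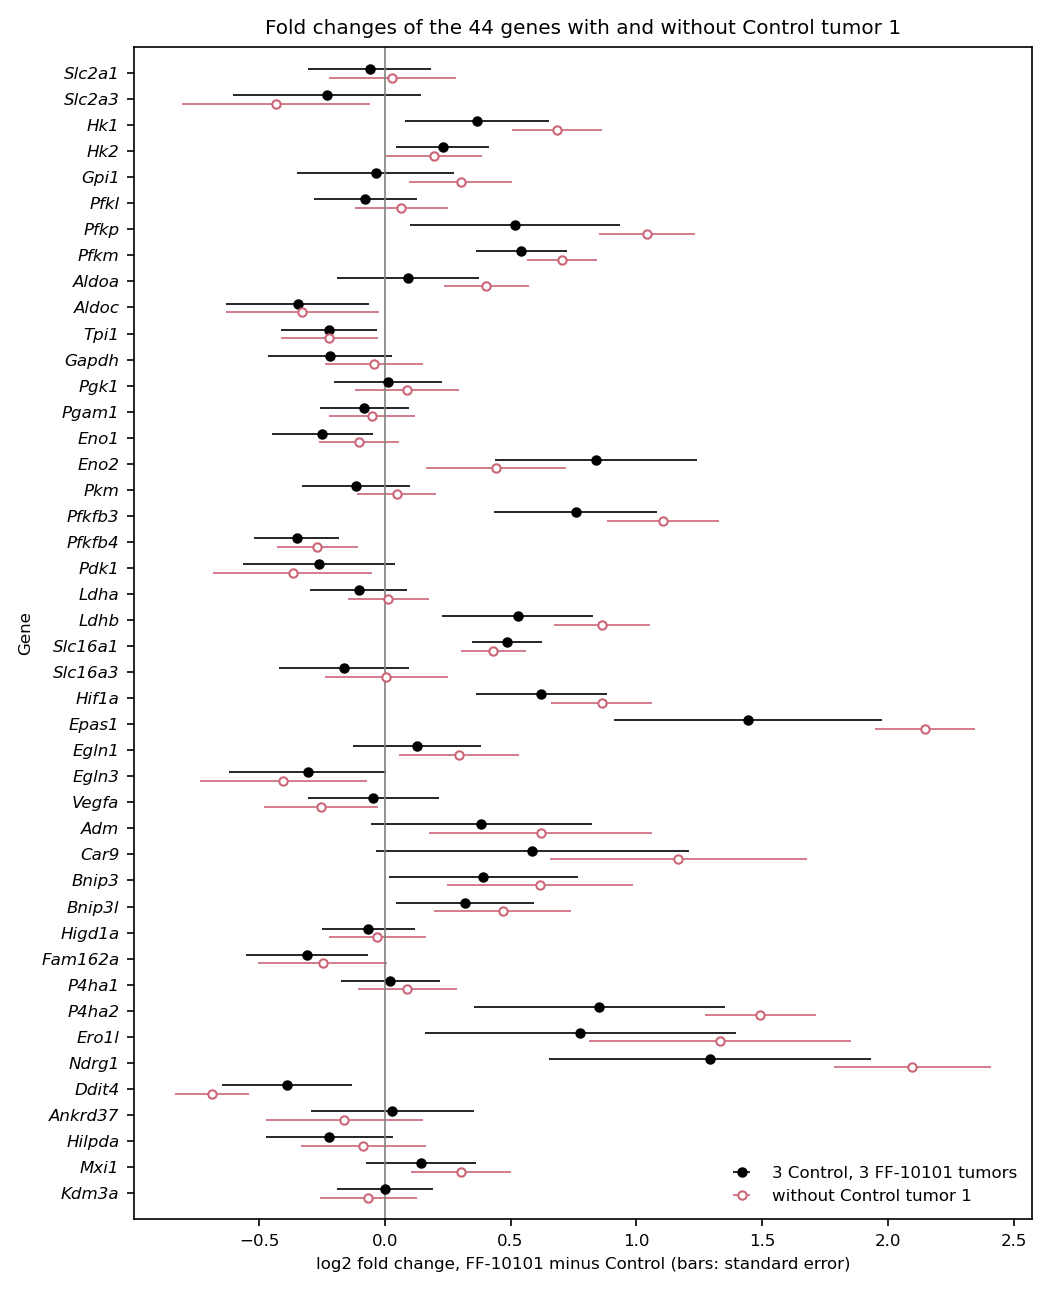
Log2 difference between FF-10101–treated and Control tumors (x axis, with standard errors) for each of the 44 genes (y axis), from all 6 tumors (filled) and without Control tumor 1 (open). The largest shifts between both fits are those of *Ndrg1* (1.29 to 2.10) and *Epas1* (1.44 to 2.15).

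The spread within the treated group had an order that the genes shared. FF-10101 tumor 3 held the highest count of the treated group for 40 of the 44 genes (90.9%), and for 20 of the 20 hypoxia genes, beside 35.3% of all genes tested. FF-10101 tumor 1 held the lowest for 35 of the 44 genes (79.5%), beside 41.7% of all genes. In the Control group, tumor 1 held the highest count for 31 of the 44 genes (70.5%), beside 44.6% of all genes. The median deviation from each gene's mean over the 6 tumors was -0.32, 0.027 and 0.57 on the log2 scale for the 20 hypoxia genes in FF-10101 tumors 1, 2 and 3. In Control tumors 1, 2 and 3 it was 0.25, -0.25 and -0.17. For the 24 glycolysis genes these deviations were -0.22, -0.077 and 0.29 in the treated and 0.30, -0.060 and -0.13 in the Control tumors. The median SD of a gene among treated tumors was 0.34 for the 44 genes and 0.21 for all genes tested, and among Control tumors 0.29 and 0.32. These are descriptions of 6 tumors, and the genes are not independent of each other. The summed level of 7 erythroid markers had the same order among treated tumors, at 1842, 532 and 1063 in the Control tumors and 724, 2153 and 2806 in the treated tumors, with *Slc4a1* at 0 in every tumor. The summed level of 10 T and NK cell markers, at 3905, 1563 and 1268 in the Control tumors and 2189, 3789 and 4294 in the treated tumors, also ran in that order, as did that of 8 adipocyte markers, at 921, 576 and 1159 in the Control tumors and 369.6, 1621 and 2202 in the treated tumors. The sum of the mesenchymal markers given above ran in the reverse order, but its markers did not all do so. *Col1a1*, *Col1a2*, *Sparc* and *Twist1* ran in reverse. *Vim*, *Thy1* and *Pdgfra* rose from FF-10101 tumor 1 to tumor 3, and *Col3a1*, *Fn1* and *Prrx1* ran in neither order. The sum of 10 proliferation markers, at 5649.7, 9649.9 and 9738 in the Control tumors and 6977, 4508 and 4716 in the treated tumors, was lowest of the Controls in tumor 1 and highest of the treated tumors in tumor 1. All 10 had a log2 difference below 0. At an unadjusted p under 0.05, 5 were lower, beside 16.3% of all genes in either direction, of which 8.77% were higher. None passed the adjusted threshold, and without Control tumor 1 limma called 7 of the 10 lower, beside 1379 of all 13963 genes. The sum of 8 keratinocyte markers was 1119.6 in FF-10101 tumor 1 and 64.1 to 239.6 in the other tumors, with *Krt5* and *Krt14* at 396 and 484 normalized counts in that tumor. The part of these cell types and of proliferation in the order of the 44 genes was not tested.

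**Figure D4:**
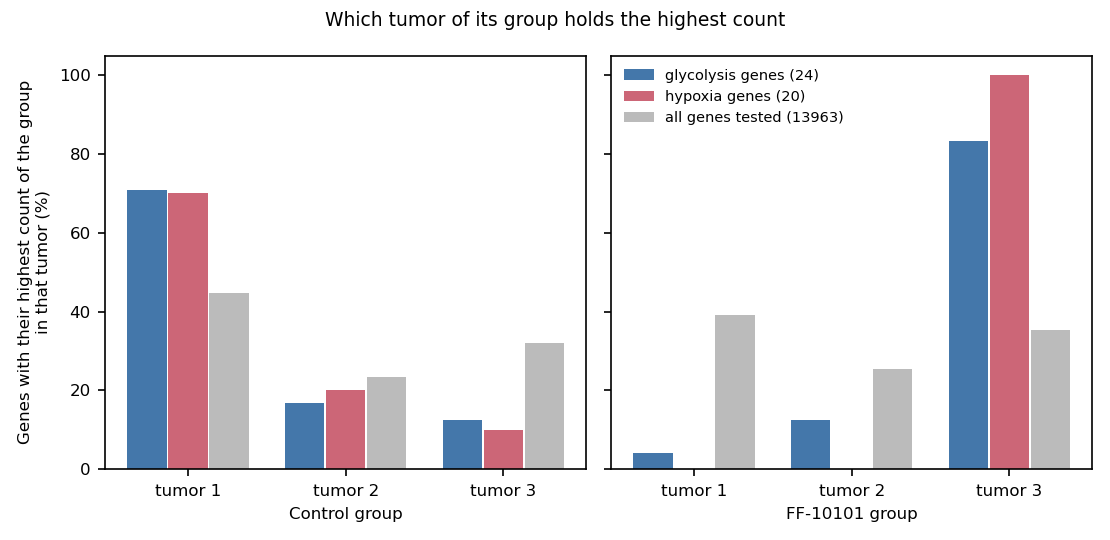
Percentage of genes (y axis) that have their highest normalized count of the group in tumor 1, 2 or 3 of the Control group (left) and of the FF-10101 group (right), for 24 glycolysis genes, 20 hypoxia genes and all 13963 genes tested. In the FF-10101 group, tumor 3 holds the maximum of 83.3% of the glycolysis genes and of 100% of the hypoxia genes, beside 35.3% of all genes.

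Ratios of paired genes within a tumor remove what both share, such as the scaling of a library. Of 12 pairs, 3 had groups that did not overlap, a count to be read beside the 10.9% and 9.37% of single genes apart in either direction. The log2 ratio of *Pfkfb4* to *Pfkfb3* was -1.19, -0.62 and -0.19 in the Control tumors and -1.58, -1.67 and -2.07 in the treated tumors. Every treated tumor was thus shifted toward *Pfkfb3*, by -1.11 on average. The log2 ratio of *Slc16a1* to *Slc16a3* was -0.93, -0.28 and -0.22 in the Control tumors and 0.64, 0.087 and -0.21 in the treated tumors, a shift toward *Slc16a1* that was smallest in FF-10101 tumor 3. The log2 ratio of *Eno2* to *Eno1* was -9.57, -8.13 and -7.76 in the Control tumors and -7.22, -7.23 and -7.74 in the treated tumors, with FF-10101 tumor 3 only 0.013 above Control tumor 3, and with a pseudocount of 10 these groups overlapped. The gap for *Slc16a1* to *Slc16a3* was as narrow, at 0.015, and that for *Pfkfb4* to *Pfkfb3* was 0.38. The pairs *P4ha1* to *P4ha2*, *Hif1a* to *Epas1* and *Pfkp* to *Pfkl* were nearly constant among the treated tumors, with SDs of 0.089, 0.13 and 0.025, and spread among the Control tumors, with SDs of 0.99, 0.80 and 0.67. In these 3 pairs Control tumor 1 lay at or beside the treated tumors. No test was run on the ratios.

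**Figure D5:**
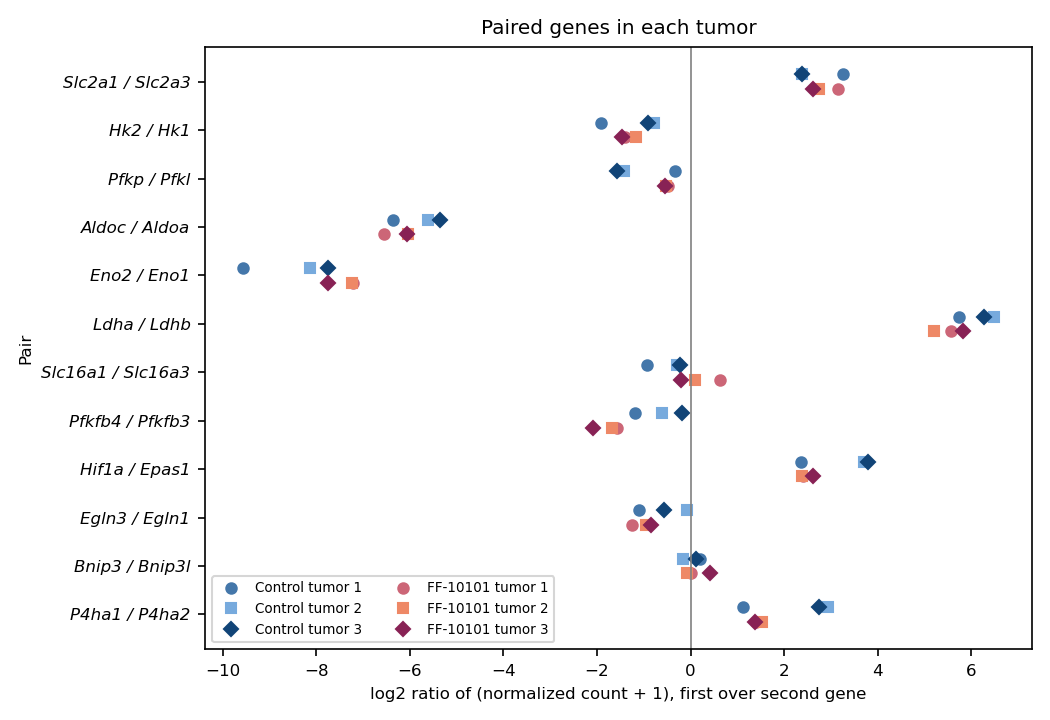
Log2 ratio of the first to the second gene of 12 pairs (x axis) in each of the 6 tumors, Control above and FF-10101 below each line of the y axis. The groups are apart by 0.38 for *Pfkfb4* to *Pfkfb3*, and by 0.015 and 0.013 for *Slc16a1* to *Slc16a3* and *Eno2* to *Eno1*.

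A further 94 genes of the pathway, covering other glycolytic isoforms, pyruvate and pentose phosphate enzymes, the HIF machinery and other HIF targets, gave 84 genes above the minimum. None passed the adjusted threshold in limma or limma-voom, beside 0.0430% of all genes, and without Control tumor 1 limma called 12 higher and 5 lower (20.2% of the 84, beside 21.9% of all genes). At an unadjusted p under 0.05, 11 had a higher and 6 a lower mean with FF-10101 (20.2% of the 84, beside 16.3% of all genes). The median log2 difference was 0.026 over the 84 genes, 0.26 over the 39 other HIF targets tested and -0.19 over the 19 genes of pyruvate and pentose phosphate metabolism. The 3 highest differences among those 17 were in *Angptl4*, an inhibitor of lipoprotein lipase, *Lox*, which cross-links collagen, and *Vldlr*, a lipoprotein receptor. *Angptl4* measured 1273, 172 and 175 normalized counts in the Control tumors and 945, 2131 and 2101 in the treated tumors, with a log2 difference of 2.26 ± 0.75 (SE, n = 3 per group), limma adjusted p = 0.243. *Lox* measured 6800.1, 2296 and 1523 normalized counts in the Control tumors and 6209.9, 7695 and 11514 in the treated tumors, with a log2 difference of 1.51 ± 0.51 (SE, n = 3 per group), limma adjusted p = 0.249. For *Angptl4*, *Lox* and *Vldlr*, Control tumor 1 again lay far above the other Control tumors, and *Vldlr* differed by 1.505. The 3 lowest were in *Slc16a7*, the MCT2 lactate transporter, *Ppfia4*, a liprin that hypoxia induces, and *Pgls*, the lactonase of the pentose phosphate pathway. *Slc16a7* measured 82.2, 78.2 and 69.9 normalized counts in the Control tumors and 23.7, 47.8 and 50.7 in the treated tumors, a log2 difference of -0.97. *Ppfia4* measured 624, 389 and 394 normalized counts in the Control tumors and 204, 272 and 237 in the treated tumors, a log2 difference of -0.95 ± 0.23 (SE, n = 3 per group), limma adjusted p = 0.229. *Pgls* measured 1183, 988 and 1217 normalized counts in the Control tumors and 848, 726 and 641 in the treated tumors, a log2 difference of -0.62 ± 0.17 (SE, n = 3 per group), limma adjusted p = 0.229. All 3 had groups that did not overlap, which picking the lowest differences at a low p favors, and Control tumor 1 lay with the other Control tumors or farther from the treated ones. Of the 84 genes, 8 lay lower in every treated tumor, beside 9.37% of all genes, and 6 lay higher, beside 10.9%.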

How the data were processed

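Bulk RNA-seq of 6 tumors, 3 per group as the labels give them, was analysed; the labels call them biological replicates. The authors trimmed reads with fastp 0.19.5, quantified them with Salmon 1.5.1 on GENCODE annotation and normalized them with DESeq2 1.22.1, per the submitters' processing notes and the methods. The deposited table holds log2 values from the authors, in the form that variance stabilization gives. Inverting it returned whole reads over a size factor for 100% of 325854 values, within 1e-06 of a whole number. These normalized counts were analysed with limma. The authors' count test was not run here, and limma-voom on the recovered reads was an alternative.

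Genes averaging 10 or more normalized counts (13963) were fitted as log2(normalized count + 1) with limma 3.58.1 in R 4.3.3 (lmFit, eBayes with trend, group as the only term, two-sided), with Benjamini-Hochberg adjustment over all of them and a threshold of 0.05. Fold changes are on this scale, which understates changes of low genes. Simulated data with known changes were used to test the fit. Alternatives were other pseudocounts (0.5 and 10), minimums (none and 50) and scalings, limma-voom, a replicate block, and each tumor left out. Identifiers were named with a GENCODE table of an earlier build (51484 of 54309 matched); promoters came from RefSeq (GRCm38.p6). Near-identical copies were found with BLAST 2.17.0 as transcripts of at least 95% identity. Salmon assigns reads shared by such copies by estimation. The 44 genes, the other lists and the pairs were chosen with earlier results of these data known. Genes were given by tumor if their unadjusted p was under 0.05, if their groups did not overlap, or if they were among *Slc2a1*, *Hk2*, *Ldha*, *Pdk1*, *Vegfa*, *Car9*, *Bnip3*, *Hif1a* and *Epas1*; of the other pathway genes, the 3 highest and 3 lowest differences among those with an unadjusted p under 0.05 were named.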

Additional observations from a re-analysis of the deposited data

How the results depend on the processing

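Leaving out each tumor in turn gave 0 to 11 of the 44 genes called at the adjusted threshold, 1 to 13 at an unadjusted p under 0.05, 3 to 14 higher in every FF-10101–treated tumor, 1 to 11 lower in every one, and 0 to 17 other pathway genes called. The upper ends came without Control tumor 1, except that 11 genes were lower in every treated tumor without FF-10101 tumor 3 (without FF-10101 tumor 1, 8 were higher in every one). Beside these, 28.4% of all genes lay higher in every treated tumor without Control tumor 1 (31.8% of the 44), 20% without FF-10101 tumor 1 (18.2%) and, lower in every one, 11.8% without FF-10101 tumor 3 (25% of the 44). The 17 other pathway genes were 20.2% of those tested, beside 21.9% of all genes, and the 13 members at an unadjusted p under 0.05 were 29.5%, beside 37.0%. The adjusted calls of members were made without Control tumor 1 alone and in no other setting. The median log2 difference ranged from -0.22 to 0.13 over the glycolysis genes and from -0.083 to 0.31 over the hypoxia genes. The log2 difference changed sign for 22 genes, with ranges of -0.32 to 0.15 for *Slc2a1*, -0.60 to 0.13 for *Slc2a3*, -0.26 to 0.30 for *Gpi1*, -0.25 to 0.066 for *Pfkl*, -0.073 to 0.40 for *Aldoa*, -0.19 to 0.13 for *Pgk1*, -0.24 to 0.0053 for *Pgam1*, -0.22 to 0.047 for *Pkm*, -0.59 to 0.054 for *Pdk1*, -0.23 to 0.014 for *Ldha* and -0.40 to 0.066 for *Slc16a3*, and of -0.12 to 0.32 for *Egln1*, -0.64 to 0.0082 for *Egln3*, -0.25 to 0.16 for *Vegfa*, -0.074 to 0.78 for *Adm*, -0.14 to 1.17 for *Car9*, -0.027 to 0.72 for *Bnip3*, -0.21 to 0.068 for *Higd1a*, -0.17 to 0.13 for *P4ha1*, -0.25 to 0.29 for *Ankrd37*, -0.030 to 0.30 for *Mxi1* and -0.091 to 0.13 for *Kdm3a*. Pseudocounts of 0.5 and 10, no minimum, a minimum mean of 50 (which left out *Eno2*), scaling by the 75th percentile or by total reads, the deposited log2 values and limma-voom gave 0 members at the adjusted threshold and kept the direction of each member, except *Kdm3a*, at 0.018 with the 75th percentile and 0.025 with total reads. The cause of these changes was not tested. Pairing by replicate number was looked for in the deviations of each gene's log2 values from its group mean. Over all genes tested, these correlated at -0.29, -0.04 and -0.28 for same-numbered tumors and at -0.13 to 0.31 for the others. With 3 tumors per group, such values cannot settle whether tumors were paired. With the replicate number as a block, 3 genes had an unadjusted p under 0.05 and 0 passed the adjusted threshold. With 3 tumors per group, the depth limited *Eno2* and *Car9* most, which held 14 and 12 reads in their lowest tumor.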
